A study of Mus musculus with 12 samples.

Results

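The transcripts of 8 receptor genes through which fat cells sense nutrients and antilipolytic signals were examined in epididymal white adipose tissue (eWAT) of mice. They were Ffar2, Ffar4, Hcar1, Hcar2, Adora1, Ptger3, Npy1r and Adra2a, found by matching the mouse Ensembl identifiers of an RNA-seq table of 23474 genes to these symbols, and all 8 were in the table. The table held FPKM values, fragments scaled to transcript length and library depth, for 12 libraries. All mice were male C57BL/6J animals of 17 weeks that had been on their diet for 12 weeks from 5 weeks of age, in groups of 10, of which 3 libraries per group were sequenced. The ND group had received a normal diet and the HFD group a high-fat diet. The GT group had received the same high-fat diet with green tea ethanol extract at 0.25% (w/w), and the TJ group the high-fat diet with the herbal formula Taeeumjowitang at 3% (w/w), so that the HFD, GT and TJ groups shared the fat load and the ND group did not. The extracts were given at different doses, and GT and TJ were both compared with the same 3 HFD libraries.

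A fat cell breaks down its triglyceride when cyclic AMP rises and protein kinase A is active. Receptors coupled to inhibitory G proteins lower cyclic AMP and so restrain lipolysis: Hcar1 responds to lactate, Hcar2 to 3-hydroxybutyrate and niacin, Ffar2 to short-chain fatty acids, Adora1 to adenosine, Ptger3 to prostaglandin E2, Npy1r to neuropeptide Y and peptide YY, and Adra2a to catecholamines. Ffar4, the receptor for long-chain fatty acids, differs in that it signals largely through Gq and arrestin, and it rises as fat cells mature. Ffar2, Hcar2 and Ffar4 are also known from neutrophils and macrophages, so that a level in whole tissue need not come from fat cells alone.

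The genes lie on 6 chromosomes in the GRCm38 annotation. Ffar2 (ENSMUSG00000051314) was at chr7:30818348-30823775 on the minus strand, Ffar4 (ENSMUSG00000054200) at chr19:38097071-38114263 on the plus strand and Ptger3 (ENSMUSG00000040016) at chr3:157566892-157645888 on the plus strand. Hcar1 (ENSMUSG00000049241, chr5:123876736-123880020) and Hcar2 (ENSMUSG00000045502, chr5:123863570-123865499) are single-exon neighbours on the minus strand with 11236 nt between them. Their longest identical stretch was 18 nt, and neither transcript held a 40-nt run found in another gene's transcripts, so reads of one could be told from reads of the other. The same held for Ffar4, Ptger3 and Adra2a, while 0.323% of the 40-nt words of Ffar2 and 3.603% of those of Npy1r occurred in other genes. Adora1 (ENSMUSG00000042429) was at chr1:134199223-134235431 on the minus strand, where 1162 nt of exon overlap Mybph on the opposite strand. The library kit did not mark strand, and Mybph was listed at 0 to 0.0846 FPKM in the 12 libraries, so few fragments of the overlap could have belonged to it. Npy1r (ENSMUSG00000036437) was at chr8:66697192-66706792 and Adra2a (ENSMUSG00000033717) at chr19:54044151-54048982, both on the plus strand.

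Promoter sequence was taken from RefSeq (GRCm38.p6), which matched 7 of the 8 genes. Stretches of 220 bases, from 250 to 31 bases before the annotated start, are shown for 3 of the genes that were higher in TJ than in HFD and for Adora1, which was higher in GT and not in TJ. Capitals mark the nuclear receptor core AGGTCA and the C/EBP core TTGCNNAA, searched on both strands.
Ffar2 promoter, chr7:30823806-30824025 (minus strand): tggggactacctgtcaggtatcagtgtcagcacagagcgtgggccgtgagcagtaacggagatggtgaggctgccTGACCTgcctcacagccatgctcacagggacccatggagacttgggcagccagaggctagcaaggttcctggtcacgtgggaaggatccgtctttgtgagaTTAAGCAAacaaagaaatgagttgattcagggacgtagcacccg
Ffar4 promoter, chr19:38096829-38097048 (plus strand): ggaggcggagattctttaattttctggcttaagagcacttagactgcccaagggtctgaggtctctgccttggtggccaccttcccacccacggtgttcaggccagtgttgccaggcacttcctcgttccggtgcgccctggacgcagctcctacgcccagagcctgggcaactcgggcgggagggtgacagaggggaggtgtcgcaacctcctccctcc
Hcar1 promoter, chr5:123880034-123880253 (minus strand): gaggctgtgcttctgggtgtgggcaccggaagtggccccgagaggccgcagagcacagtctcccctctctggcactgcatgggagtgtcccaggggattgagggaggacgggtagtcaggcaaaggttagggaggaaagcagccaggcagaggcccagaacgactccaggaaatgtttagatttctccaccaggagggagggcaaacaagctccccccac
Adora1 promoter, chr1:134235488-134235707 (minus strand): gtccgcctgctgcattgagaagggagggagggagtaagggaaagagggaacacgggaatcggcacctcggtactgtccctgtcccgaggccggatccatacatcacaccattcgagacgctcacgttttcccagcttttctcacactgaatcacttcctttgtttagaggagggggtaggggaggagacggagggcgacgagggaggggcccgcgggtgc
Among the 300-base promoters of the 7 genes, those of Ffar2 held matches: the nuclear receptor core (here read as TGACCT) lay 175 bases before the start of the promoter shown, and the C/EBP core 74 bases before it. Ffar2 has 4 annotated starts. The nuclear receptor core was in 3 of these promoters, of which a pair overlap, and the C/EBP core in all 4. Of all 32851 mouse promoters of this length, 16.3% held the nuclear receptor core and 10.8% the C/EBP core. The direct repeat of that core with 1 base between its copies (DR1) was in 13 of them and in none of the receptor genes. The stretches shown had a GC content of 55.9% for Ffar2, 62.3% for Ffar4, 61.4% for Hcar1 and 60.0% for Adora1, against a median of 51.8% (quartiles 45.0% and 60.5%) over all promoters.

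Of the 12 libraries, ND replicate 1 stood apart. Germ cell markers of the testis made up 9.87% of its summed FPKM and epididymal markers 1.76%, against at most 0.556% and 0.239% in the other 11 libraries, and its adipocyte markers summed to 7434 FPKM against 20527 to 71234. Lesser cases were HFD replicate 2, with 1172 FPKM of the epididymal gene Crisp1, and HFD replicate 1 and ND replicate 3, with 436 and 502 FPKM of the sperm gene Prm1. The adipocyte markers Adipoq and Plin1 were high in all 12 libraries, at 202 to 3738 and 59.1 to 825 FPKM. Estimated depth ran from 10.0M to 19.5M fragments per library. Values for ND are given with and without replicate 1. The HFD and TJ libraries came from separate mice; for ND and GT no source says so, and their p-values measure the spread between these libraries.

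**Figure D1:**
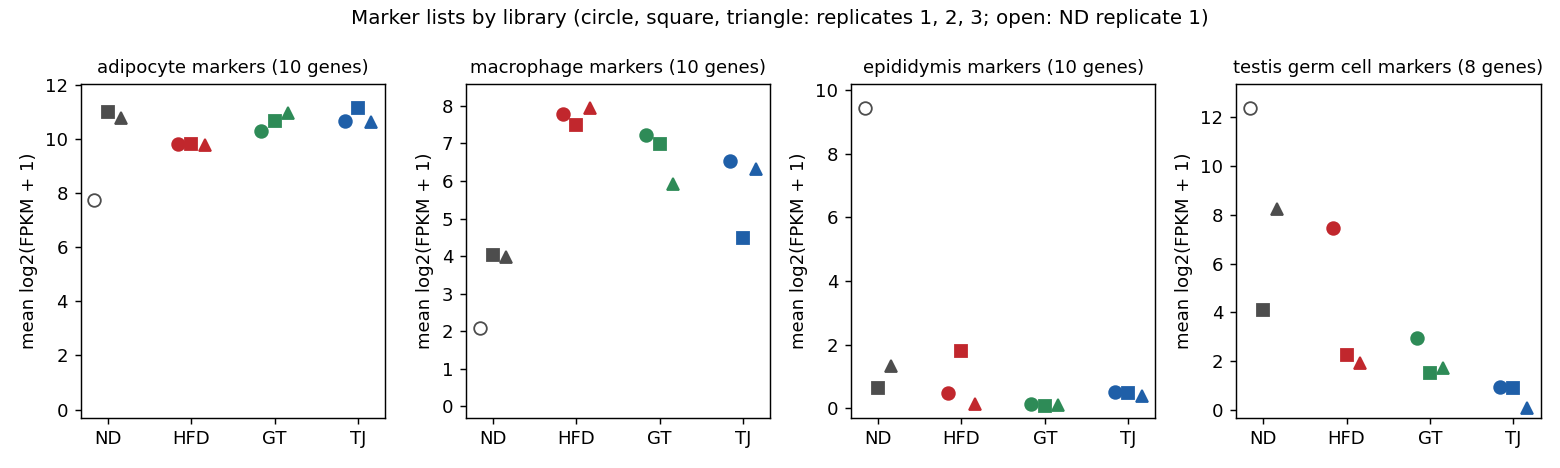
Mean log2(FPKM + 1) of marker genes of adipocytes, macrophages, epididymis and testis germ cells (y axes) in each of the 12 libraries, by diet group (x axes). ND replicate 1, the open circle, had the lowest adipocyte value (7.77) and the highest epididymal (9.45) and germ cell (12.4) values. The 3 TJ libraries lay above the 3 HFD libraries in adipocyte markers and below them in macrophage markers.

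Of the 8 receptors, 6 were well expressed. Over the 11 libraries without ND replicate 1, mean levels per transcript length were 34.3 FPKM for Ptger3, 31.3 for Ffar2, 27.7 for Hcar1, 26.6 for Adora1, 16.2 for Hcar2 and 13.3 for Ffar4. The order differed between groups. By group means Ptger3 was highest in HFD (29.9 FPKM), Adora1 in GT (41.1) and Ffar2 in TJ (38.5), and in HFD Ffar2 (15.9) lay under Adora1 (24.4) and Hcar1 (17.2). Over the 11 libraries Ptger3 exceeded 89.2% of all genes in the table and Ffar4 75.4%. Npy1r and Adra2a averaged 0.53 and 0.18 FPKM and were the only members under the filter of 1 FPKM, so the comparisons below concern 6 genes of the 8, and these 2 were fitted only with the filter removed.

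Among the fatty acid receptors, Ffar2 measured 22.5, 13.8 and 11.3 FPKM in the 3 HFD libraries, 39.8, 37.4 and 39.0 in GT, and 37.1, 45.2 and 33.2 in TJ. In ND it measured 7.49 in replicate 1 and 37.0 and 27.4 in the others. All libraries of GT and TJ lay above all of HFD, and ND did too once replicate 1 was set aside. In order of their means the groups ran GT (38.7 ± 1.20 FPKM, SD, n = 3), TJ (38.5 ± 6.09), ND without replicate 1 (32.2) and HFD (15.9 ± 5.88). The ranges of GT, TJ and ND overlapped along this order, and only the step down to HFD left no overlap.

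Ffar4 stood at 6.67, 5.15 and 5.28 FPKM in HFD, 7.83, 10.4 and 12.7 in GT, and 19.5, 33.6 and 14.01 in TJ. The ND libraries gave 3.02, 16.6 and 14.8 FPKM. Here the 3 high-fat groups formed steps without overlap, HFD lowest, GT between and TJ highest, with TJ replicate 2 well above the rest of its group. By their means the order was TJ (22.3 ± 10.1 FPKM), ND without replicate 1 (15.7), GT (10.3 ± 2.42) and HFD (5.70 ± 0.844), in which TJ and ND overlapped.

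Of the hydroxycarboxylic acid receptors, Hcar1 measured 21.3, 17.4 and 13.03 FPKM in HFD, 31.1, 32.8 and 47.6 in GT, and 29.1, 29.7 and 28.1 in TJ. The ND libraries gave 0.47, 36.1 and 18.8 FPKM, the first in replicate 1. Every GT and TJ library exceeded every HFD library, the TJ libraries were tightly grouped and all 3 lay below the lowest GT library. The means were 37.2 ± 9.10 FPKM in GT, 29.0 ± 0.826 in TJ, 27.5 in ND without replicate 1 and 17.2 ± 4.14 in HFD. The remaining pair of ND libraries spanned the values of TJ and overlapped those of both GT and HFD.

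Hcar2, its neighbour, measured 10.3, 7.86 and 6.92 FPKM in HFD, 17.2, 18.6 and 18.2 in GT, and 17.2, 25.5 and 15.99 in TJ. In ND it was at 1.33 in replicate 1 and at 25.01 and 15.1 in the others. HFD was below each of the other groups without overlap when ND replicate 1 was left out, and ND (mean 20.03 without it), TJ (19.6 ± 5.17) and GT (18.0 ± 0.686) overlapped one another. The level of Hcar1 divided by that of Hcar2 was 2.08, 2.21 and 1.88 in HFD, 1.80, 1.76 and 2.62 in GT, and 1.69, 1.17 and 1.76 in TJ. All TJ ratios were below all HFD ratios, a mean log2 difference of -0.44 with p = 0.1 in a two-sided exact permutation test. That is the smallest p that 3 libraries against 3 can give, and any lack of overlap gives it. All TJ ratios were also below all GT ratios (highest 1.755 in TJ, lowest 1.764 in GT), at -0.42 with the same p. GT and HFD overlapped (-0.02). How often the ratios of other gene pairs separate was not examined. The pair of ND libraries kept had ratios of 1.44 and 1.25.

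Adora1 followed another order. It measured 23.0, 28.9 and 21.3 FPKM in HFD, 44.9, 38.3 and 39.98 in GT, and 20.6, 16.2 and 19.2 in TJ, with 6.82, 18.8 and 22.0 in ND. The 3 GT libraries were above the other 9 libraries of the study, and the 3 TJ libraries lay just under the lowest HFD library. The means were 41.1 ± 3.45 FPKM in GT, 24.4 ± 3.96 in HFD, 20.4 in ND without replicate 1 and 18.7 ± 2.28 in TJ, where HFD overlapped ND and ND overlapped TJ.

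Ptger3 measured 24.1, 30.6 and 34.95 FPKM in HFD, 33.8, 39.97 and 41.02 in GT, and 41.7, 30.4 and 28.3 in TJ. It was 1.44 FPKM in ND replicate 1 and 36.4 in each of the others. The HFD, GT and TJ groups overlapped one another, and the ND libraries other than replicate 1 lay just above the highest HFD library. By their means the order was GT (38.3 ± 3.92 FPKM), ND without replicate 1 (36.4), TJ (33.5 ± 7.19) and HFD (29.9 ± 5.45).

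The receptors for neuropeptide Y and for catecholamines were near the floor of the assay. Npy1r measured 0.496, 0.858 and 0.731 FPKM in HFD, 0.434, 0.277 and 0.484 in GT, 0.258, 0.374 and 0.611 in TJ, and 0.104, 0.497 and 0.821 in ND. At the estimated depths this amounts to roughly 3 to 48 fragments per library. Its HFD libraries were above its GT libraries without overlap and overlapped those of TJ and ND. Adra2a ranged from 0.0694 to 0.323 FPKM, roughly 5 to 27 fragments, and its 4 groups overlapped (group means 0.174 to 0.207 FPKM, with ND replicate 1 included). Without ND replicate 1 the groups still overlapped, and the means of HFD, GT and TJ were 1.29, 1.51 and 1.54 times the ND mean. With the filter removed, Npy1r had an adjusted p of 0.230 for GT against HFD and 0.251 for TJ against HFD, and Adra2a had 0.816 and 0.805 (limma). Npy1r had an unadjusted p under 0.05 for GT against HFD. Without the filter limma called 5 of 19470 genes in GT against HFD and 382 of 20343 in TJ against HFD, with none of the 8 receptors in either, and these p-values do not show that the groups were alike for either gene.

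**Figure D2:**
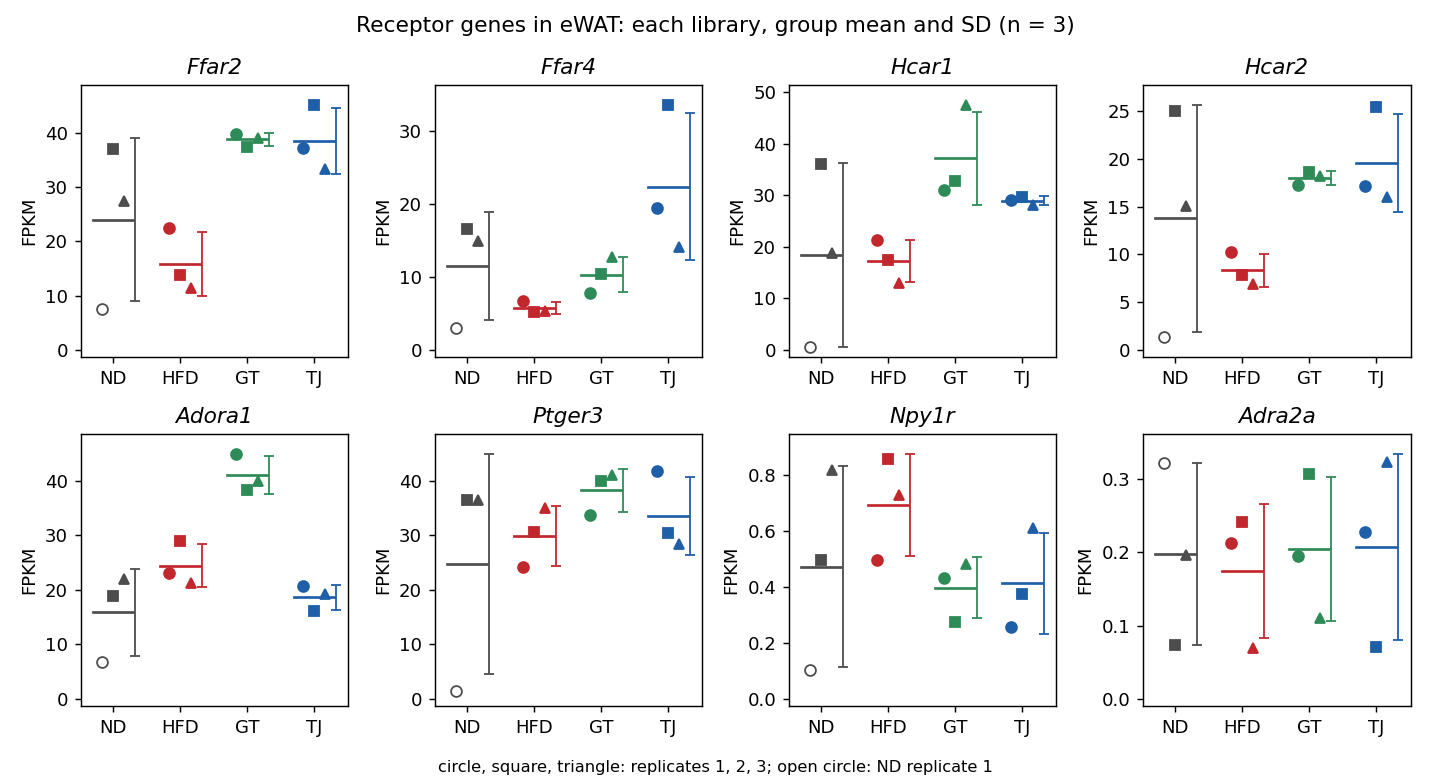
FPKM (y axes) of each of the 8 receptor genes in the ND, HFD, GT and TJ groups (x axes). Points are libraries, with circles, squares and triangles for replicates 1, 2 and 3 and an open circle for ND replicate 1. Horizontal bars are means and vertical bars the SD (n = 3). Ffar2, Ffar4, Hcar1 and Hcar2 are lowest in HFD among the high-fat groups, Adora1 is highest in GT, and Npy1r and Adra2a stay under 1 FPKM.

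TJ was compared with HFD to ask which transcripts of eWAT the formula altered in mice on the same fat load. In TJ 4 receptors were higher, Ffar4 by 3.30-fold, Ffar2 by 2.41-fold, Hcar2 by 2.18-fold and Hcar1 by 1.67-fold, and Adora1 and Ptger3 did not pass the test. The test was limma on log2(FPKM + 1), with a gene called at a Benjamini-Hochberg adjusted p under 0.05 over all 12807 genes and a fold change of at least 1.5, and it called 18.5% of all genes, 7.41% as higher. The fitted log2 fold change was 1.72 ± 0.30 (SE) for Ffar4, with an adjusted p of 0.0247. It was 1.27 ± 0.25 for Ffar2 (adjusted p = 0.0277), 1.12 ± 0.22 for Hcar2 (0.0261) and 0.74 ± 0.18 for Hcar1 (0.0379). Adora1 had a log2 fold change of -0.36 (95% interval -0.75 to 0.02, adjusted p = 0.134) and Ptger3 one of 0.15 (-0.32 to 0.63, 0.570).

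The 3 TJ libraries lay on one side of the 3 HFD libraries for 5 of the 6 receptors tested, the 4 named and Adora1, which was lower. Over all genes 51.5% did so, 20.1% with TJ higher and 31.4% with TJ lower. The calls depended on the libraries. With TJ replicate 2 or TJ replicate 3 left out all 4 receptors were called (15.7% and 26.5% of all genes), whereas with HFD replicate 1, 2 or 3 or TJ replicate 1 left out limma called none of the genes tested, 3732 to 4735 genes then having an unadjusted p under 0.05, and 4 of the 6 receptors. In those fits the adjusted p of the 4 receptors ran from 0.0512 to 0.124.

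Markers of fat cells, macrophages and other cell types moved in the same comparison. Of 10 adipocyte markers 7 were higher in TJ (Adipoq, Plin1, Lipe, Cidec, Fabp4, Pck1 and Cfd, median log2 fold change of the list 0.97), and the list summed to 34106 to 71234 FPKM in TJ against 20527 to 22194 in HFD. In this list 8 markers had a positive log2 fold change, Cfd the highest, and 2 a negative one, Lep the lowest. Cfd was also the only adipocyte marker called in HFD against ND, as lower, so the list held genes that differed between diets. Of 10 macrophage markers 7 were lower (Adgre1, Cd68, Itgam, Csf1r, Cd14, Mrc1 and Itgax, median -2.10), summing to 750.01 to 2562 FPKM in TJ against 3824 to 5388 in HFD, whereas none of the 3 neutrophil markers that passed the filter was called. Of 7 progenitor and stromal markers 3 were lower (Pdgfra, Cd34 and Col1a1, median -1.09, the list summing to 774 to 1018 FPKM in TJ against 1006 to 1043 in HFD), and 1, Ly6a, had a positive log2 fold change. Of 7 endothelial markers 2 were higher (Emcn and Cldn5, median 0.54, 484 to 742 against 304 to 338 FPKM), and of 5 mesothelial markers tested Wt1 was lower. None of the 8 testis germ cell markers was called, although all had a negative log2 fold change (median -3.49) and their sum was 0.685 to 9.23 FPKM in TJ against 29.3 to 2061 in HFD, without overlap. Neither T and B cell marker that passed the filter was called, and the 8 genes of that list summed to 5.43 to 8.66 FPKM in TJ against 2.47 to 2.99 in HFD, also without overlap. In whole tissue, fewer cells of a type and less RNA per cell cannot be told apart. The adipocyte marker list was higher in TJ by 1.00 in its mean log2 value. Measured relative to that list, an alternative chosen after seeing the data that lowered the median of all genes to -1.14 and called 78.2% of them, Ffar4 kept a log2 difference of 0.72 (adjusted p = 0.0208), Ffar2 one of 0.27 (0.342) and Hcar2 one of 0.12 (0.569). Hcar1 then turned to -0.26 (0.317), while Adora1, at -1.37 (0.00461), and Ptger3, at -0.85 (0.0229), lay on either side of the median of all genes. The part of these cell types in the receptor levels was not tested.

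GT was compared with the same HFD libraries. Ffar2 was 2.44-fold higher in GT, Hcar1 2.09-fold, Hcar2 2.05-fold and Adora1 1.67-fold. These 4 calls stood against 3.63% of the 12766 genes tested, 1.83% as higher. The log2 fold changes were 1.29 ± 0.23 (SE) for Ffar2 (adjusted p = 0.0379), 1.07 ± 0.22 for Hcar1 (0.0482), 1.04 ± 0.14 for Hcar2 (0.0337) and 0.74 ± 0.13 for Adora1 (0.0401) in limma's test. Ffar4 had 0.74 (95% interval 0.31 to 1.16), the same size as Adora1, with an adjusted p of 0.0624, and Ptger3 had 0.36 (-0.01 to 0.72, 0.177).

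All GT libraries were above all HFD libraries for 5 of the 6 receptors tested, Ptger3 being the exception, as they were for 12.3% of all genes. The adjusted p-values were close to the threshold, and the number of calls changed when a library was left out. Without GT replicate 1 limma called 5 receptors, Ffar4 included (0.0346), and 8.63% of all genes. Without HFD replicate 1 it called Ffar2 and Hcar2 and 0.533% of all genes, and without HFD replicate 2 or 3 or GT replicate 2 or 3 it called no receptor and 4 to 7 genes in all, with 5 or 6 of the 6 receptors at an unadjusted p under 0.05 beside 19.2% to 23.9% of all genes. Of the adipocyte markers 4 were higher in GT (Plin1, Lipe, Pck1 and Cfd, median of the list 0.79), and no macrophage marker was called, although all 10 had a negative log2 fold change (median -1.08) and their sum was 1402 to 3422 FPKM in GT against 3824 to 5388 in HFD, without overlap. Of 7 progenitor and stromal markers 3 were lower in GT (Pdgfra, Pi16 and Cd34, median -0.56), the list summing to 751 to 826 FPKM in GT against 1006 to 1043 in HFD. Here too 1 of them, Ly6a, had a positive log2 fold change. No endothelial marker was called, although all 7 had a positive log2 fold change (median 0.20) and summed to 354 to 450 FPKM in GT against 304 to 338 in HFD, without overlap. Nor was a nerve or Schwann cell marker called, and the 6 genes of that list summed to 3.79 to 4.53 FPKM in GT against 7.06 to 12.7 in HFD, also without overlap. The germ cell markers, of which none was called (median -1.96), summed to 15.8 to 76.8 FPKM in GT and overlapped HFD. Relative to the adipocyte markers, which were 0.84 higher in their mean log2 value, no receptor was called, where 81.6% of all genes were and their median was -0.96: Ffar2 stood at 0.45 (adjusted p = 0.154), Hcar1 at 0.23, Hcar2 at 0.20, and Ffar4 and Adora1 at -0.10 each.

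**Figure D3:**
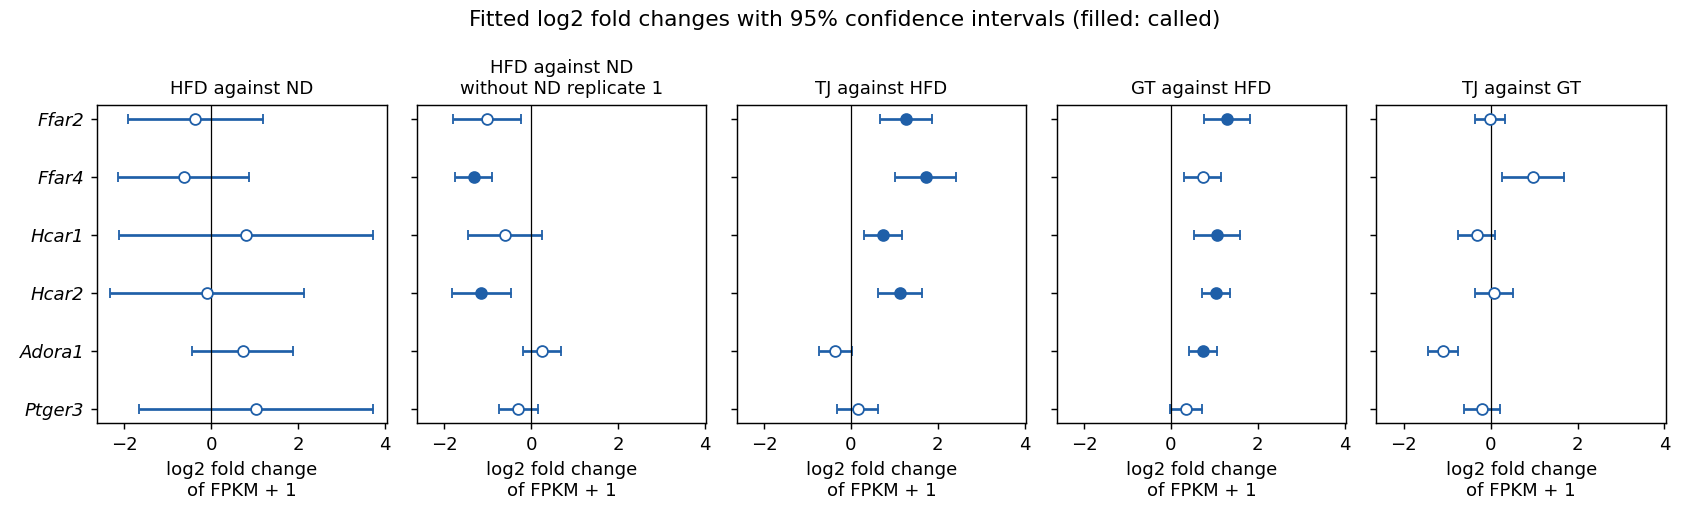
Fitted log2 fold changes of FPKM + 1 (x axes) with 95% confidence intervals for the 6 receptor genes above the filter (y axis), by comparison. Filled points passed the threshold. TJ against HFD has Ffar2, Ffar4, Hcar1 and Hcar2 filled, GT against HFD has Adora1 filled in place of Ffar4, and the intervals of HFD against ND narrow when ND replicate 1 is left out.

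TJ was set against GT directly, since a call in one and not in the other does not show that they differ. No receptor was called, where 0.148% of 12187 genes were (18 genes), and 2 of the 6 had an unadjusted p under 0.05 in limma's test, as had 24.6% of all genes. Adora1 was the one nearest the threshold, 2.15-fold lower in TJ with a log2 fold change of -1.10 ± 0.15 (95% interval -1.44 to -0.76) and an adjusted p of 0.0530. Its adjusted p fell under 0.05 with 11 libraries in the fit (0.0116, 2.03% of genes called), without TJ replicate 2 (0.0325, 0.665%) and with median-of-ratios scaling (0.0451). It was 0.0502 without TJ replicate 3 and between 0.158 and 0.309 with TJ replicate 1 or any GT library left out, 0.0848 with the replicate block and 0.646 with all 12 libraries in the fit. The log2 fold change ran from -1.17 to -1.01 over the fits that left out a library. Ffar4 was the other, at 0.98 ± 0.31 (0.27 to 1.70, adjusted p = 0.138). For Ffar2 the difference was -0.02, with an interval of -0.37 to 0.33, and for Hcar2 0.09 (-0.35 to 0.52). Hcar1 had -0.32 (-0.75 to 0.10) and Ptger3 -0.20 (-0.62 to 0.22). The libraries of TJ and GT did not overlap for Ffar4, Hcar1 and Adora1, 3 of 6, as for 34.4% of all genes.

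HFD was compared with ND for the difference between the high-fat and the normal diet, in which the fat load cannot be told apart from other differences between them. With all 6 libraries limma called none of the receptors and 1.77% of 14430 genes (255), and none of the 6 had an unadjusted p under 0.05. The intervals were wide, from -2.13 to 3.73 on the log2 scale for Hcar1 and from -1.68 to 3.72 for Ptger3, since ND replicate 1 was far below the others. Without that library 15.4% of genes were called, and Ffar4 was 2.50-fold lower in HFD (log2 fold change -1.32 ± 0.17, adjusted p = 0.00786) and Hcar2 2.21-fold lower (-1.14 ± 0.27, 0.0469). Ffar2 had -1.02 ± 0.31 (0.0911), and was called at 0.0174 when the spread was taken from 11 libraries (19.4% of genes called), an alternative chosen after seeing the data. Hcar1, with -0.60 (-1.44 to 0.25), Ptger3, with -0.29 (-0.75 to 0.16), and Adora1, with 0.24 (-0.20 to 0.68), were not called in either. Cell markers differed between the same libraries. Adipocyte markers summed to 42539 and 29442 FPKM in ND replicates 2 and 3 against 20527 to 22194 in HFD (mean log2 values 11.02 and 10.78 against 9.79 to 9.84). Macrophage markers summed to 565 and 442 against 3824 to 5388. The part of these cell types in the receptor levels was not tested. All these fits ignored the replicate number. When the numbers were taken as pairs, with the replicate as a block, 0 of the 14430 genes were called, 2239 having an unadjusted p under 0.05.

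Asked together whether any of the 4 groups differed, limma's moderated F-test over 12 libraries called no receptor and 3.77% of 13935 genes, with Ffar2 (unadjusted p = 0.0480), Ffar4 (0.0451) and Adora1 (0.0112) under 0.05 before adjustment. Over the 11 libraries it called 31.5% of 13120 genes and 5 receptors. Adora1 had an adjusted p of 0.00678, Ffar4 0.00983, Ffar2 0.00991, Hcar2 0.0129 and Hcar1 0.0418, and Ptger3 had 0.333.

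The genes that supply, relay or remove the signals of these receptors were described by lists, each with its counts and its median beside the median of all genes, which was -0.14 for TJ against HFD and -0.12 for GT against HFD. In TJ 31 of the 102 genes tested in the 13 lists were called (30.4%, against 18.5% of all genes), and in GT 5 genes were (4.95% of those tested, against 3.63%). Over all genes 7.41% were called higher in TJ and 11.1% lower. Among 20 other receptors for the same ligands, 9 passed the filter and 2 were higher in TJ (median 0.14). They were Adrb3, the lipolytic adrenergic receptor of fat cells, and Adora2a, a stimulatory adenosine receptor. Adrb3 measured 92.0, 56.9 and 41.4 FPKM in HFD, 249, 616 and 274 in TJ, and 135, 126 and 245 in GT, with a log2 fold change of 2.51 ± 0.41 in TJ (adjusted p = 0.0240) and 1.41 ± 0.35 in GT (0.0647). Adora2a went from 6.38 to 7.99 FPKM in HFD to 14.2 to 19.6 in TJ (1.14 ± 0.16, 0.0196). The lowest of this list was Adora2b in TJ (-0.43, adjusted p = 0.164) and Ptger4 in GT (-0.48, 0.0683), and none of it was called in GT (median 0.01).

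Of 12 G protein alpha subunits 10 were tested. In TJ Gnas, the stimulatory subunit, was higher (0.61 ± 0.14, adjusted p = 0.0347), and Gnai3, an inhibitory subunit, was lower (-0.80 ± 0.20, 0.0398), as were Gna12 (-0.66), Gna13 (-1.13) and Gnal (-1.25). The median of the list was -0.44. In GT Gnal alone was called, at -1.18 ± 0.24 (0.0482), and Gnas had 0.53 (0.0531), with a median of -0.19. Of the receptor kinases, arrestins and RGS proteins, which end receptor signals, 19 of 23 were tested and 3 were lower in TJ, with a median of -0.40. These were Rgs1 (-2.58 ± 0.70, 0.0444), Rgs18 (-1.81 ± 0.36, 0.0272) and Rgs2 (-1.49 ± 0.35, 0.0343), of which Rgs1 and Rgs18 are known from leukocytes. Rgs3 was at the upper end in TJ (1.14, 0.0799). In GT none was called, from Rgs18 at -1.12 (0.0797) to Rgs5 at 0.30 (0.331), median -0.17.

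Of the adenylyl cyclases, which make cyclic AMP, 6 of 9 were tested and 5 were called in TJ. Adcy4 (1.02 ± 0.23, adjusted p = 0.0313) and Adcy5 (0.65 ± 0.13, 0.0272) were higher, and Adcy7 (-2.29 ± 0.59, 0.0407), Adcy9 (-1.40 ± 0.30, 0.0299) and Adcy3 (-1.03 ± 0.23, 0.0329) were lower, for a median of -0.39. Adcy7, known from leukocytes, fell from 53.1 to 63.5 FPKM in HFD to 18.2, 3.16 and 20.6 in TJ. In GT Adcy5 was called (0.96 ± 0.19, 0.0477), Adcy7 had -1.02 (0.111) and the median was -0.06. Of the cyclic AMP phosphodiesterases 12 of 14 were tested and Pde8b was lower in TJ (-1.13 ± 0.24, 0.0293, list median -0.23), while Pde4c had 0.50 (0.177). In GT none of 11 was called, with Pde3b, the insulin-responsive phosphodiesterase of fat cells, highest at 0.63 (0.0593) and Pde8b lowest at -0.999 (0.0519), median 0.06. None of the 6 subunits of protein kinase A was called in either comparison. They ran from Prkar2a at -1.08 (0.0523) to Prkar1b at 0.31 (0.285) in TJ (median -0.12), and from Prkacb at -0.36 (0.122) to Prkar2b at 0.52 (0.0659) in GT (median -0.20).

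The ligand genes were read beside their receptors. For lactate, the ligand of Hcar1, 6 of 6 genes were tested. In TJ Ldhb, a lactate dehydrogenase subunit, was higher (1.42 ± 0.35, adjusted p = 0.0386), as was Bsg, the chaperone of lactate transporters (0.69 ± 0.18, 0.0402), and the transporter Slc16a3 was lower (-0.88 ± 0.24, 0.0435, list median 0.06). In GT the transporter Slc16a1 was higher (0.83 ± 0.12, 0.0338), Slc16a3 had -0.54 (0.177) and the median was 0.00. For 3-hydroxybutyrate, the ligand of Hcar2, 5 of 6 were tested. Acat1, a thiolase of ketone body metabolism, was higher in TJ (0.81 ± 0.17, adjusted p = 0.0283), with Oxct1, needed for ketone use, lowest at -0.32 (0.292) and a list median of -0.05. None was called in GT, where Bdh2 was lowest at -0.38 (0.220) and the median was -0.06.

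For adenosine, the ligand of Adora1, 8 of 10 genes were tested, and 4 were lower in TJ with none higher (median -0.43), where 11.1% of all genes were called lower. They were the ectonucleotidases Entpd1 (-2.22 ± 0.34, adjusted p = 0.0223) and Enpp1 (-1.60 ± 0.29, 0.0248), the nucleoside transporter Slc29a1 (-0.81 ± 0.17, 0.0293) and Ada, which deaminates adenosine (-0.67 ± 0.17, 0.0410). Entpd1 went from 109, 129 and 60.4 FPKM in HFD to 26.3, 13.3 and 21.3 in TJ. Slc28a2 was at the upper end at 0.37 (0.307). In GT, where Adora1 itself was higher, none of the 8 was called, from Enpp1 at -1.26 (0.0505) to Entpd2 at 0.34 (0.0845), median -0.36. For prostaglandin E2, the ligand of Ptger3, 9 of 10 were tested. The adipocyte phospholipase Pla2g16 was higher both in TJ (1.04 ± 0.19, 0.0248) and in GT (0.73 ± 0.10, 0.0338), and Pla2g4a was lower in TJ (-0.78 ± 0.16, 0.0284). Ptges3 had -0.51 in GT (0.0569), and the medians were 0.02 and 0.14.

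For neuropeptide Y and peptide YY 3 of 5 genes passed the filter and none was called (medians -0.37 in TJ and -0.38 in GT). Npy had the lowest log2 fold change, -2.56 in TJ (adjusted p = 0.117) and -2.45 in GT (0.191), and this turned on HFD replicate 2, with 114 FPKM against 5.20 and 5.50 in the other HFD libraries. That library also carried the epididymal gene Crisp1. The highest were Fap in TJ (-0.21) and Dpp4 in GT (-0.26). For catecholamines 4 of 9 were tested. Slc22a3, an extraneuronal monoamine transporter, was higher in TJ (0.90 ± 0.12, 0.0196) and in GT (0.99 ± 0.14, 0.0338), and Maob in TJ (0.65 ± 0.13, 0.0283), while Maoa had -0.97 (0.0558) and -0.46 (0.165). The medians were 0.52 and 0.34. Of 8 other receptors for metabolites and lipids, most of which use inhibitory G proteins, 5 were tested. Sucnr1, the succinate receptor, was higher in TJ (0.87 ± 0.12, 0.0196) and Cnr2, the cannabinoid receptor of leukocytes, lower (-1.45 ± 0.35, 0.0364), while in GT they had 0.62 (0.0850) and -0.74 (0.131), and the medians were -0.31 and -0.13.

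**Figure D4:**
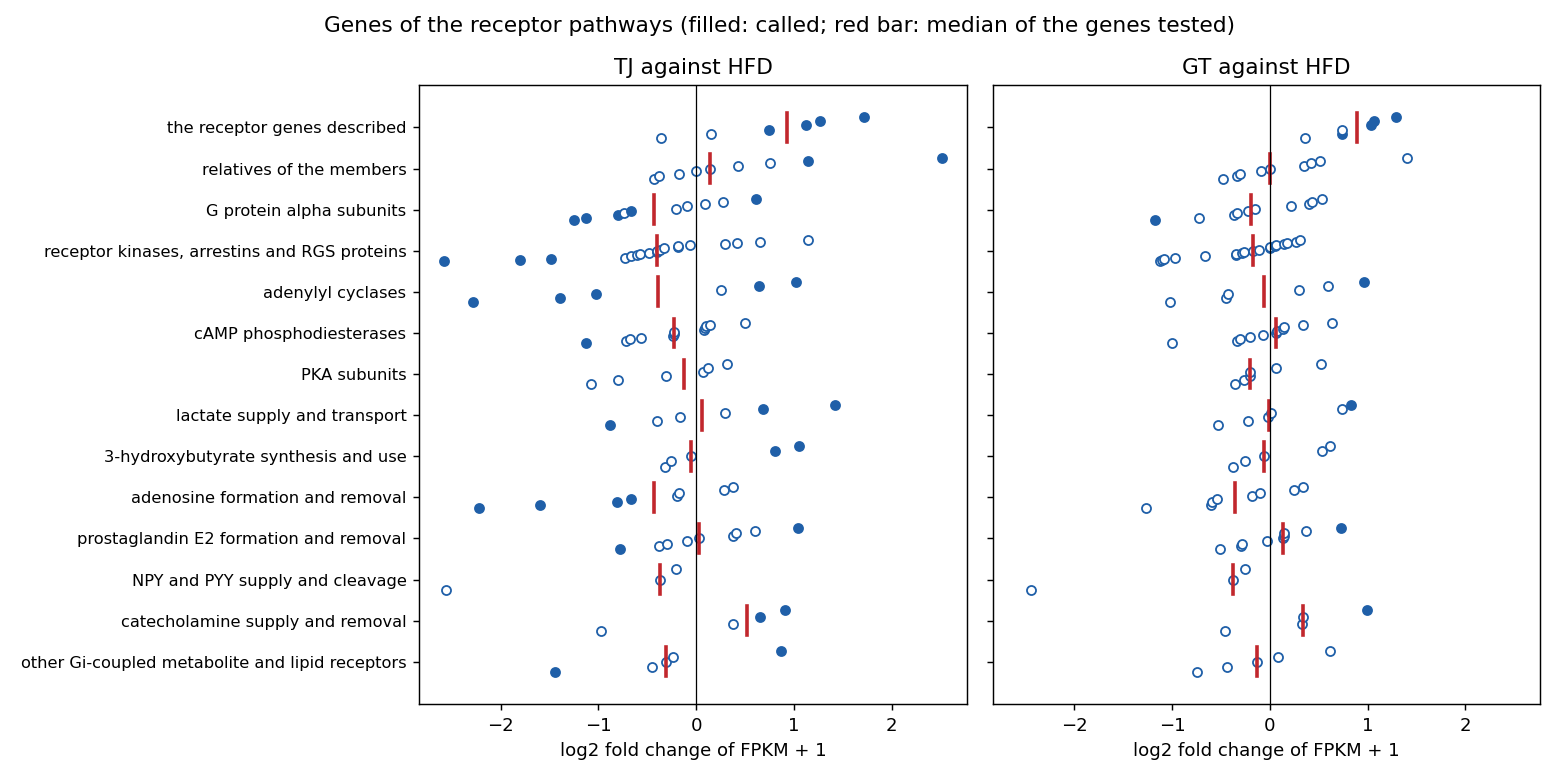
Log2 fold changes of FPKM + 1 (x axes) of the genes tested in each pathway list (y axis), for TJ against HFD on the left and GT against HFD on the right. Each point is a gene, filled where it passed the threshold, and the red bar is the list's median. In TJ the cyclases, G protein subunits and adenosine genes hold called genes at negative values, and in GT 1 gene at most is filled in any list but that of the receptors described.

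In HFD against ND, where all 6 libraries entered, 4 of the 108 genes tested in these 13 lists were called (3.70%, against 1.77% of all genes), and all were higher in HFD, as were 249 of the 255 genes called in all (1.73% of those tested): Rgs1 (5.45 ± 0.31, adjusted p = 0.00571), Adcy7 (3.63 ± 0.56, 0.0447), Rgs2 (2.84 ± 0.45, 0.0470) and Cnr2 (2.47 ± 0.31, 0.0268). Rgs1 was at 0.06 to 0.60 FPKM in ND and 51.4 to 69.9 in HFD. Macrophage markers summed to 68.1 to 565 FPKM in ND and 3824 to 5388 in HFD in the same libraries. The highest gene of each other list, from Ptger1 (1.65), Gna12 (1.69), Pde1b (1.24), Prkacb (1.18), Ldha (0.56), Oxct1 (1.34), Entpd1 (1.97), Hpgd (1.20), Npy (1.60) to Maoa (1.98), did not pass the test. Nor did the lowest, which were Adrb3 (-0.98), Gnao1 (-0.53), Grk4 (-2.12), Adcy8 (-0.998), Pde1a (-1.81), Prkar1b (-0.35), Slc16a7 (-1.87), Bdh2 (-0.01), Nt5e (-0.88), Ptges3 (-0.74), Ppy (-1.43), Slc22a3 (-0.30) and Cnr1 (-0.19). List medians ran from -0.20 for lactate to 1.21 for the other metabolite receptors, against 0.07 over all genes. These extremes and medians include ND replicate 1. Without it, among the extremes still tested, the sign turned for Hpgd (-0.17), Ptges3 (0.15) and Bdh2 (0.13). Oxct1 (0.17), Prkacb (0.32) and Grk4 (-0.72) were among those that shrank, and Npy (3.69), Adrb3 (-2.33) and Slc22a3 (-1.33) among those that grew. With any 1 HFD library left out limma called none of the genes tested, 843 to 982 of them having an unadjusted p under 0.05. With the replicate as a block it called 0 of 14430 genes, so these 4 calls were lost there as well.

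Without ND replicate 1 the same 4 genes were called, at 5.27 (Rgs1), 3.03 (Adcy7), 2.399 (Rgs2) and 2.36 (Cnr2), and 27 of the 104 list genes tested in all, 21 as higher in HFD and 6 as lower, while the test called 15.4% of all genes. Those lower were Adrb3 (-2.33 ± 0.34, adjusted p = 0.0120), Pde1a (-1.66 ± 0.23, 0.0101), Pde3b (-1.54 ± 0.19, 0.00752), Slc22a3 (-1.33 ± 0.11, 0.00218), Maob (-0.98 ± 0.21, 0.0382) and Acat1 (-0.75 ± 0.15, 0.0312). Higher in HFD were the adenosine genes Entpd1 (2.08 ± 0.34, 0.0162), Enpp1 (1.64 ± 0.38, 0.0444) and Ada (1.24 ± 0.24, 0.0285), and, among the G protein subunits, Gnai2 (0.89 ± 0.12, 0.00914), Gna12, Gna13 and Gnal. The remaining 10 were Ptger1, Adra1d, Arrb2, Rgs10, Rgs14, Rgs18, Rgs19, Adcy3, Maoa and P2ry14, with log2 fold changes from 1.01 to 2.29.

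In TJ against GT none of the genes in the 13 lists was called. The gene with the highest log2 fold change in its list, given for 12 of the lists, was Adrb3 (1.11), Gnas (0.08), Rgs3 (0.87), Adcy4 (0.72), Pde4c (0.44), Prkar1b (0.51), Bsg (0.71), Slc28a2 (0.56), Cbr1 (0.47), Fap (0.17), Maob (0.32) or Sucnr1 (0.26). The lowest was Adra1a (-0.38), Gnao1 (-0.61), Rgs1 (-1.50), Adcy7 (-1.26), Pde3b (-0.49), Prkar2a (-0.81), Slc16a1 (-0.54), Oxct1 (-0.26), Entpd1 (-1.62), Pla2g4a (-0.50), Dpp4 (-0.11), Maoa (-0.51) or Cnr2 (-0.71). The medians of the lists lay between -0.48 and 0.20.

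The genes whose pattern across libraries was most like that of each receptor were found by Pearson's r of log2(FPKM + 1), as a description over libraries that share groups and differ in tissue makeup. Over 12 libraries the nearest to Ffar2 were Rxrg (r = 0.966), Dcaf4 and Rufy4, to Ffar4 Kiss1r (0.986), Tspo and Npdc1, and to Hcar1 Slc7a10 (0.987), Cdsn and Pex19. Those nearest to Hcar2 were Impdh1 (0.984), Rasd1 and Ctps2, to Adora1 Ephb2 (0.930), C4b and Dmpk, and to Ptger3 Rab3d (0.989), Extl3 and Alas1. ND replicate 1 entered into these values. Without it Rxrg stayed among the nearest 3 to Ffar2 (0.941), as did Slc7a10 (0.918) and Pex19 (0.912) for Hcar1 and Dmpk for Adora1 (0.898), while the lists of the other receptors were replaced in full. The nearest were then Mfng (0.967) and Hcar2 (0.949) for Ffar2, Pim3 (0.989) for Ffar4, Optn (0.966) for Hcar2 and Gcnt2 (0.758) for Ptger3. Of the 6 receptors for which this was done, Hcar2 alone was among the nearest 3 genes of another.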

How the data were processed

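RNA of eWAT was sequenced in 12 libraries, and the authors deposited 1 table of FPKM values, made with STAR and Cufflinks 2.1.1 with noncoding regions masked and multiread and fragment bias correction. The aligner is STAR 2.4.0 in the submitters' processing notes and another version in the methods, which also name the human genome, whereas all 23474 identifiers are mouse. GENCODE M21 named 22671 of them. FPKM holds no counts, so the tests rest on the spread between libraries, which for ND and GT no source ties to separate mice, and depth was estimated from the smallest steps of the values. Groups came from the labels. limma 3.58.1 (R 4.3.3, lmFit, eBayes with a trend) was fitted to log2(FPKM + 1), which understates the changes of low genes, on the 6 libraries of each comparison, for genes averaging 1 FPKM or more over them, and p-values were adjusted over all genes tested. Tables and figures were made with python 3.11.15, pandas 2.3.3 and matplotlib 3.10.9, and exact permutation tests with scipy 1.17.1.

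The receptors and lists were chosen with earlier results of these data known. Named are all 8 receptors, the called and the highest and lowest genes of each list, and the 3 genes most like each receptor. The values of 1 list gene are not reported here. Deviations from group means correlated at 0.547, 0.342 and 0.122 between ND and HFD libraries of the same number. HFD replicate 3 and ND replicate 2 correlated at 0.626, and no source names what a number shares. The numbers were therefore taken as pairs only in the fit with the replicate as a block, which called 0 genes. All other calls for HFD against ND come from fits that ignore the number. In data simulated for TJ against HFD (12807 genes), 88 of 100 genes changed 4-fold and 54 of 100 changed 2-fold were called. With nothing changed 0 were called. In the measured libraries of that comparison 41.4% of genes had an unadjusted p under 0.05 in limma's test. The counts above describe the simulation only, and recovery with so large a share of genes moving was not tested.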

Additional observations from a re-analysis of the deposited data

How the results depend on the processing

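The calls of single receptors were near the threshold and several alternatives removed them, whereas directions mostly held. In TJ against HFD, 4 receptors and 2366 genes were called. Without the filter this became 0 and 382, with all 12 libraries in the fit 0 and 1, and with a replicate block 3 (Hcar1 lost, adjusted p = 0.0582) and 1198. In GT against HFD, 4 receptors and 464 genes became 0 and 5 without the filter, 0 and 1 with all 12 libraries, 0 and 5 with the replicate block, and 0 and 67 without the trend. In HFD against ND, 255 genes became 126 with a pseudocount of 0.1, 1131 with all 12 libraries and 0 with the block. In TJ against GT, 18 genes became 11 with a pseudocount of 0.1, 6 without the filter and 4 with all 12 libraries, and median-of-ratios scaling called 1 receptor, Adora1 (0.0451). The cause of these changes was not tested. In the fits over 12 libraries ND replicate 1 enters the spread.

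With 1 library left out, genes called ran from 0 to 3412 in TJ against HFD, 4 to 1107 in GT against HFD, 0 to 2098 in HFD against ND and 4 to 81 in TJ against GT, and receptors called from 0 to 4, 0 to 5, 0 to 2 and 0 to 1. In HFD against ND the log2 fold change ran from -1.02 to 0.0653 for Ffar2 (above 0 without ND replicate 2), from -0.60 to 1.73 for Hcar1 and -0.29 to 1.68 for Ptger3 (both below 0 without ND replicate 1), and from -1.14 to 0.60 for Hcar2 (above 0 without ND replicate 2 or 3 or HFD replicate 3). In TJ against HFD it ran from -0.0099 (without TJ replicate 1) to 0.27 for Ptger3. In TJ against GT it ran from -0.14 to 0.0783 for Ffar2 (above 0 without TJ replicate 1 or 3) and from -0.11 (without TJ replicate 2) to 0.21 for Hcar2. A pseudocount of 0.1 turned Hcar2 in HFD against ND to 0.0297, and median-of-ratios scaling Ffar2 in TJ against GT to 0.0032.

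Chosen after seeing the data, 11 libraries in the fit gave 3 receptors and 2656 genes in HFD against ND, 3 receptors (Hcar1 at 0.0522) and 3003 genes in TJ against HFD, 2 receptors and 139 genes in GT against HFD, 1 receptor and 247 genes in TJ against GT, and 5 receptors in the F-test, with Hcar1 at -0.60 and Ptger3 at -0.29 in HFD against ND. Relative to adipocyte markers 9, 10014, 10421 and 90 genes were called in HFD against ND, TJ against HFD, GT against HFD and TJ against GT, and 0 receptors in GT against HFD. This setting takes 1 offset from the log2 fold change of every gene (1.00 in TJ against HFD, 0.836 in GT against HFD and 0.167 in TJ against GT), which moved the median of all genes to -1.14, -0.96 and -0.20, so any smaller positive difference turns negative by construction. In that way it turned Hcar1 (-0.26) and Ptger3 (-0.85) in TJ against HFD, Ffar4 (-0.0969), Adora1 (-0.0988) and Ptger3 (-0.48) in GT against HFD, and Hcar2 (-0.081) in TJ against GT. In TJ against HFD, GT against HFD and TJ against GT the numbers share only a number: correlations ran from -0.051 to 0.227, from -0.070 to 0.198 and from -0.213 to 0.371. The values are FPKM, so no counting interval could be given, and levels under 1 FPKM are the least certain.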
